A study of Dunaliella tertiolecta UTEX 'LB 999' with 2 samples.

Results

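Messenger RNA of Dunaliella tertiolecta, a wall-less unicellular green alga of salt water, was followed after a rise in light, and 7 chloroplast transcripts with roles around chlorophyll synthesis, the photosynthetic membrane and its lipids are described here. They were taken from the authors' lists of 234 transcript contigs that differed between 8 h and 4 h after the light shift, as every contig whose best hit carried the symbol GUN4, PTOX2, CCB3, CGLD14 or PSBP9, or whose protein name held Crd1 or gamma-tocopherol methyltransferase. All 7 names were found, each on 1 contig. Strain UTEX LB-999 was grown in a chemostat, a culture kept steady by constant inflow, at 25 °C and 0.5 M NaCl in 40 µmol photons m-2 s-1 of light, and the flux was raised to 400 µmol photons m-2 s-1 once the culture was steady. RNA was extracted 4 h and 8 h later, with 1 library per time point. Transcript levels are given as RPKM, read numbers divided by contig length and library depth, and rest on 556037 reads at 4 h and 674129 at 8 h. With 1 library each there was no replicate check, and every 95% interval below is an exact interval on reads that covers counting error only. Less RNA per cell and fewer cells that express a gene cannot be told apart in such bulk samples.

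In plants and algae, chlorophyll is built from protoporphyrin, into which magnesium chelatase inserts magnesium before an oxidative cyclase closes the ring that gives the pigment its colour. GUN4 binds the porphyrins and stimulates the chelatase, and the diiron protein Crd1 belongs to the cyclase. The free precursors are photosensitisers, so the pathway is closely regulated in light. Thylakoids, the membranes that hold the pigments, also need assembly factors for their complexes, oxidases that draw off electrons and tocopherols that protect the lipids. By the named functions, 2 of the 7 contigs belonged to chlorophyll synthesis and 1 to complex assembly, so that the set is wider than those processes. The remaining 4 were a tocopherol enzyme, a plastid oxidase and a pair of PsbP family proteins, whose relatives serve photosystem II.

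The 7 contigs were listed in both directions. GUN4, PTOX2, CCB3 and PSBP9 were in the list of higher contigs at 8 h, and the Crd1-like contig, the gamma-tocopherol methyltransferase and CGLD14 were in the list of lower ones. The 4 of 7 that were higher stand beside 57.3% of all listed contigs that were higher, and the 3 lower beside 42.7%. Every listed contig had a fold of at least 2 and a p under 0.05 in the authors' deposited table. The directions, p-values, FDR values and intervals given here therefore describe contigs already chosen for a difference, and were not tested. The folds of the 4 higher members had a median of 2.59, against 2.75 over the whole higher list. The 3 lower members had a median of 3.03, against 2.67 over the whole lower list. The interval of the fold excluded 1 for GUN4, PTOX2, the Crd1-like contig and the methyltransferase, or 4 of 7, beside 52.1% of all listed contigs.

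At 4 h, the Crd1-like contig held most of the summed level of the set. The levels of the 7 contigs added up to 165 RPKM at 4 h and 159 RPKM at 8 h, a ratio of 0.960. The Crd1-like contig made up 56.1% of the sum at 4 h and 26.5% at 8 h. Without it, the sum over the other 6 was 72.6 RPKM at 4 h and 117 RPKM at 8 h, a ratio of 1.61. The 4 higher members together held 40.3 RPKM at 4 h and 106 RPKM at 8 h, and the 3 lower members 125 and 52.4 RPKM. These sums by direction follow the choice of contigs and are a description.

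**Figure D1:**
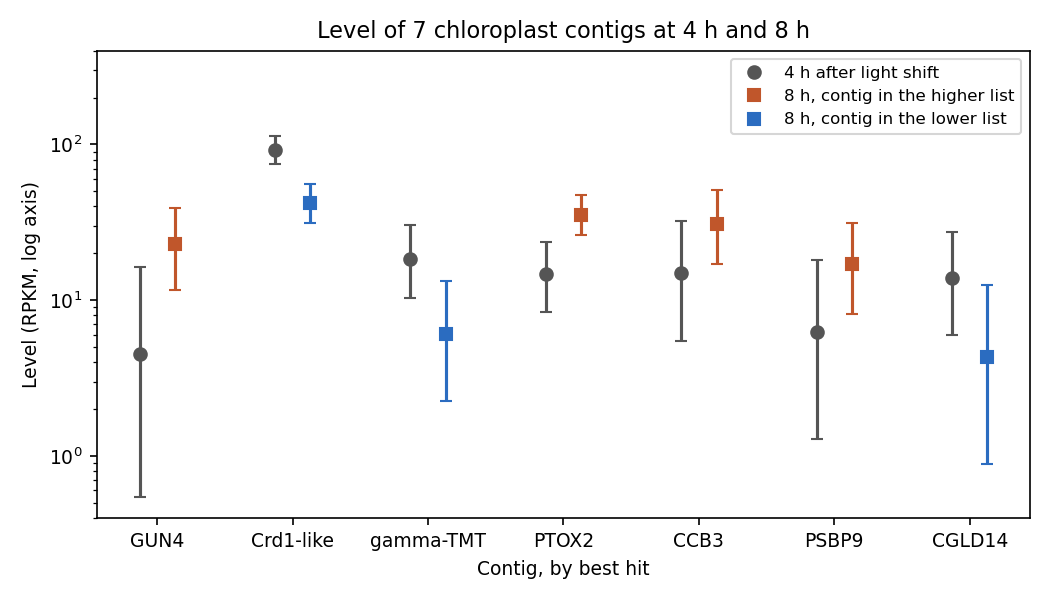
Level in RPKM (log axis) of the 7 contigs at 4 h (circles) and 8 h (squares, coloured by the authors' list), with 95% exact Poisson intervals on the reads of each library. The 4 h and 8 h intervals are apart for the Crd1-like contig and PTOX2, the best-counted members, and overlap for the other 5. The share of all listed contigs with these intervals apart was not computed.

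The chlorophyll synthesis contigs were listed in opposite directions. The Crd1-like contig, annotated as a putative dicarboxylate diiron protein with best hit Cre12.g510050.t1.1 of Chlamydomonas reinhardtii, had 91 reads at 4 h and 50 at 8 h. These reads gave 92.8 RPKM at 4 h (interval 74.7 to 114) and 42.1 RPKM at 8 h (31.2 to 55.5). The level was 2.21-fold lower at 8 h (1.55 to 3.18), and its library intervals did not overlap. By the reads in its higher library, this contig ranked 10 of 234, so it is the best-counted member. The authors' deposited table gave it an FDR of 0.000496. In Chlamydomonas reinhardtii the cyclase has paralogous copies whose transcripts respond to copper and oxygen supply. Which copy lies at the best-hit locus was not looked up here. The label Crd1-like follows the protein name and does not tell the copies apart.

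GUN4, with best hit Cre05.g246800.t1.1, stood at the other end of the range. It had 2 reads at 4 h and 12.4 at 8 h, which gave 4.52 RPKM (0.547 to 16.3) and 23.03 RPKM (11.6 to 39.1). Its fold of 5.10 (1.10 to 45.5) ranked 11 among the 134 higher contigs and was the largest of the set, but its library intervals overlapped and its upper bound is loose because of the 2 reads at 4 h. GUN4 was the 1 member of 7 with a fold of at least 4, beside 15.4% of all listed contigs. Its raw total of 19.4 reads was fractional, and whether reads were divided between this and other contigs was not tested. The authors' deposited table gave an FDR of 0.0197.

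Set against each other, the 8 h to 4 h ratio of GUN4 was 11.2 times that of the Crd1-like contig. This quotient does not depend on how the libraries were scaled. Its conditional exact interval on reads was 2.26 to 103. Contigs taken from opposite lists differ at least 4-fold in this quotient by construction, so it is a description and no test.

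The gamma-tocopherol methyltransferase contig, whose enzyme adds the last methyl group of alpha-tocopherol, was lower at 8 h. Its best hit was Cre14.g624350.t1.1. It had 15 reads at 4 h and 6 at 8 h, or 18.5 RPKM (10.3 to 30.5) and 6.09 RPKM (2.24 to 13.3). The fold was 3.03 (1.11 to 9.53), and the lower bound lay just past equal levels. The authors' deposited table gave an FDR of 0.131. The contig is transcript 2 of 2 assembled at its locus, with an assembly confidence of 0.667 in its name, and the level of the other transcript is not analysed here.

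PTOX2, the plastid terminal oxidase, passes electrons from plastoquinol to oxygen and so acts as a valve on the thylakoid electron chain. The contig, described as an alternative oxidase family protein with best hit Cre03.g172500.t1.2, gave 16 reads at 4 h and 47 at 8 h. The level was 14.6 RPKM (8.37 to 23.8) at 4 h and 35.5 RPKM (26.1 to 47.2) at 8 h. It was 2.42-fold higher (1.35 to 4.58), and the intervals of the libraries were apart. The fold is a modest one in the list, at rank 99 of 134. With the Crd1-like contig, it is the best supported member by reads.

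CCB3 is named for cofactor assembly on complex C, the cytochrome b6f complex, where CCB proteins attach a haem to cytochrome b6 in Chlamydomonas reinhardtii. It had 6 reads at 4 h and 15 at 8 h, or 14.9 RPKM (5.47 to 32.4) and 30.7 RPKM (17.2 to 50.7). The 2.06-fold difference (0.756 to 6.49) was close to the smallest fold in the lists, at rank 124 of 134, and its interval included 1. The ratio of PTOX2 was 1.18 times that of CCB3 (0.317 to 3.93), so a difference between their ratios was not detectable at this depth. Its best hit was Cre01.g052400.t1.1, and the authors' deposited table gave an FDR of 0.151.

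The PsbP family contigs, related to a subunit of the oxygen-evolving side of photosystem II, were listed in opposite directions on few reads. PSBP9, with best hit Cre06.g280150.t1.1, had 3 reads at 4 h and 10 at 8 h, or 6.20 RPKM (1.28 to 18.1) and 17.1 RPKM (8.18 to 31.4). CGLD14, with best hit Cre10.g446350.t1.2, had 8 reads at 4 h and 3 at 8 h, or 13.9 RPKM (5.98 to 27.3) and 4.29 RPKM (0.884 to 12.5). PSBP9 was 2.75-fold higher (0.708 to 15.5) and CGLD14 3.23-fold lower (0.776 to 18.9), and both intervals included 1. The ratio of PSBP9 was 8.89 times that of CGLD14, with a conditional exact interval of 1.07 to 83.8 that again begins from opposite lists. The authors' deposited table gave FDR values of 0.187 and 0.198. CGLD14 was the 1 member with under 10 reads in its higher library.

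The order of levels differed between the libraries. At 4 h, the Crd1-like contig was highest and GUN4 lowest, 20.5-fold apart. At 8 h, the Crd1-like contig was still highest and CGLD14 lowest, 9.81-fold apart. At 4 h, the interval of the Crd1-like contig lay above that of the methyltransferase, next in the order, and every other pair of neighbours overlapped. At 8 h, all neighbours overlapped, and PTOX2 came directly after the Crd1-like contig. GUN4 held the seventh place at 4 h and the fourth at 8 h.

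The authors' p-values for these contigs follow from the RPKM values. The same was not summarised over all listed contigs, so it is not read as a trait of the members. When the RPKM values of a member were put into a Wald test as if they were Poisson counts, the p came within 1% of that in the authors' deposited table for 7 of 7 members. That p was 0.0176 for gamma-tocopherol methyltransferase in the authors' deposited table, where it stands beside its FDR of 0.131. CGLD14 had a p of 0.0337 in the authors' deposited table, although the read interval of its fold included 1. In the authors' deposited table, 3 of 7 members had an FDR under 0.05, beside 32.5% of all listed contigs. These were GUN4, PTOX2 and the Crd1-like contig.

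**Figure D2:**
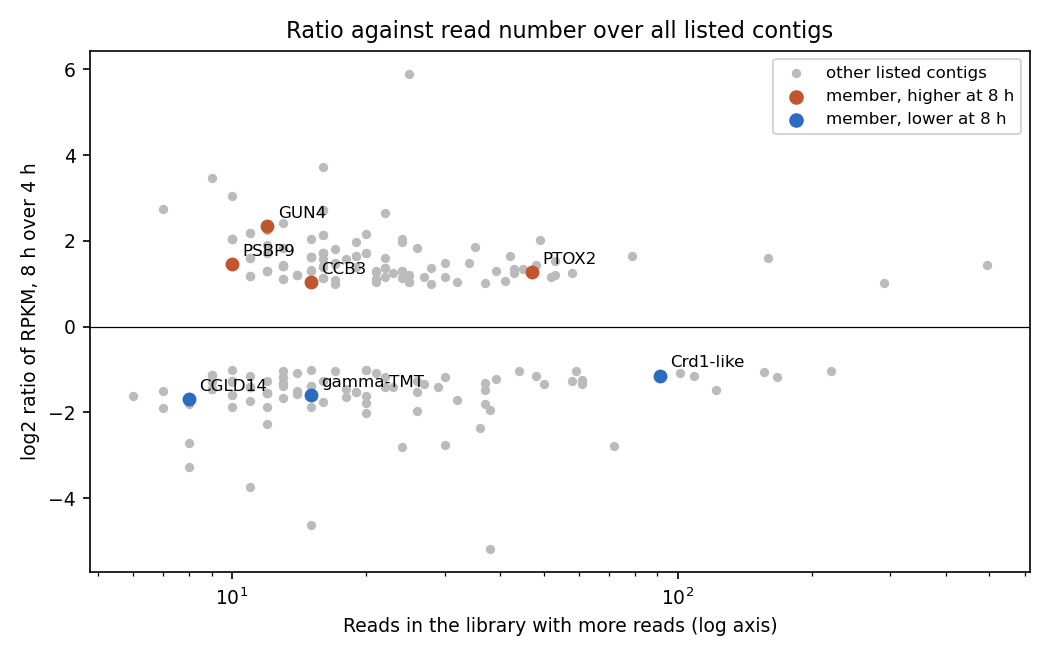
Log2 ratio of RPKM (8 h over 4 h) against the reads in the library with more reads (log axis), for the 7 named contigs (coloured by direction) and the other listed contigs (grey). No contig lies near a ratio of 1 because the lists hold folds of at least 2; the Crd1-like contig and PTOX2 lie to the right with 91 and 47 reads, and the other 5 have 8 to 15.

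Beyond their names, the members had features in common with the lists at large. Contig lengths were 724 to 1966 bases with a median of 1038, against a median of 1095 over all listed contigs. Reads in the higher library ranged from 8 to 91 with a median of 15, against 16 over all. E values of the best hits were at most 5e-40, while 25 of the 234 contigs had E values of 1e-20 or more. Fractional raw totals occurred in 1 of 7 members (14.3%) and in 31.2% of all listed contigs.

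Few other listed contigs of the chloroplast were matched by keyword in the same pathways. The keyword lists held no words for membrane lipids, so contigs of that kind were not looked for. Keyword lists and members together made up 22 contigs, 11 higher and 11 lower. Without the members, the lists held 15 contigs, 7 higher and 8 lower. Of all listed contigs, 57.3% were higher and 42.7% lower. The list for tetrapyrrole synthesis held 1 contig, GUN4, since the wording did not reach Crd1. The list for tocopherol, quinone, carotenoid and isoprenoid synthesis held 1 contig, the methyltransferase. No other enzyme of either pathway was matched, which says nothing about contigs outside the lists, as those are not analysed here.

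The list for photosystems, the b6f complex and thylakoid electron transport and assembly held 12 contigs. Of these, 6 were higher, beside 57.3% of all listed contigs. Members were 4 of these 12, and among the other 8, 3 were higher and 5 lower. Antenna proteins LHCBM4 and LHCBM3, which bind chlorophyll for photosystem II, had the most reads. LHCBM4 stood at 257 RPKM at 4 h and 124 RPKM at 8 h, and LHCBM3 at 110 and 16.0 RPKM, in the same direction as the Crd1-like contig. Both antenna contigs had fractional raw totals. The other 6 contigs were matched by the letters CGL alone, a symbol for proteins conserved in the green lineage, and their descriptions name no thylakoid role. CGL51, a nucleotide-sugar transporter family protein, was 2.57-fold higher (1.18 to 6.18), and CGL49, an ADP-ribosylation factor, 4.15-fold higher (1.48 to 13.3). The intervals of the other 4 included 1. CGL63, an uncharacterised conserved protein, stood at 28.9 RPKM at 4 h and 11.9 RPKM at 8 h. CGL73 stood at 28.2 and 10.7 RPKM, CGL40 at 25.02 and 11.5 RPKM, and CGL3 at 7.16 and 19.7 RPKM, all without a described function.

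All 3 contigs of the antenna and early light-inducible list were lower, beside 42.7% of all listed contigs, and LHCBM3 and LHCBM4 of the list above were among them. The remaining one, ELI3, an early light-inducible protein by its symbol, stood at 17.5 RPKM at 4 h and 5.41 RPKM at 8 h on 8 reads and 3, with an interval of the fold that included 1. The list of other chloroplast proteins held 6 contigs, and 4 of them had a higher level at 8 h, beside 57.3% of all listed contigs. GAP1a, a glyceraldehyde-3-phosphate dehydrogenase of the plastid, was 2.72-fold higher (2.26 to 3.28). CLPR2, a subunit of the plastid Clp protease, was 3.02-fold higher (1.19 to 9.12). CLPT1, described by a ribosomal protein and a Clp adaptor, stood at 8.98 RPKM at 4 h and 27.8 RPKM at 8 h, with an interval of the fold that included 1. CSP41b, a chloroplast RNA-binding protein, stood at 11.1 RPKM at 4 h and 22.9 RPKM at 8 h, with an interval that included 1 too. MIND1, which places the plastid division site, was 3.94-fold lower (1.73 to 10.1). The protease DEG2 stood at 14.2 RPKM at 4 h and 5.22 RPKM at 8 h, again with an interval that included 1.

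**Figure D3:**
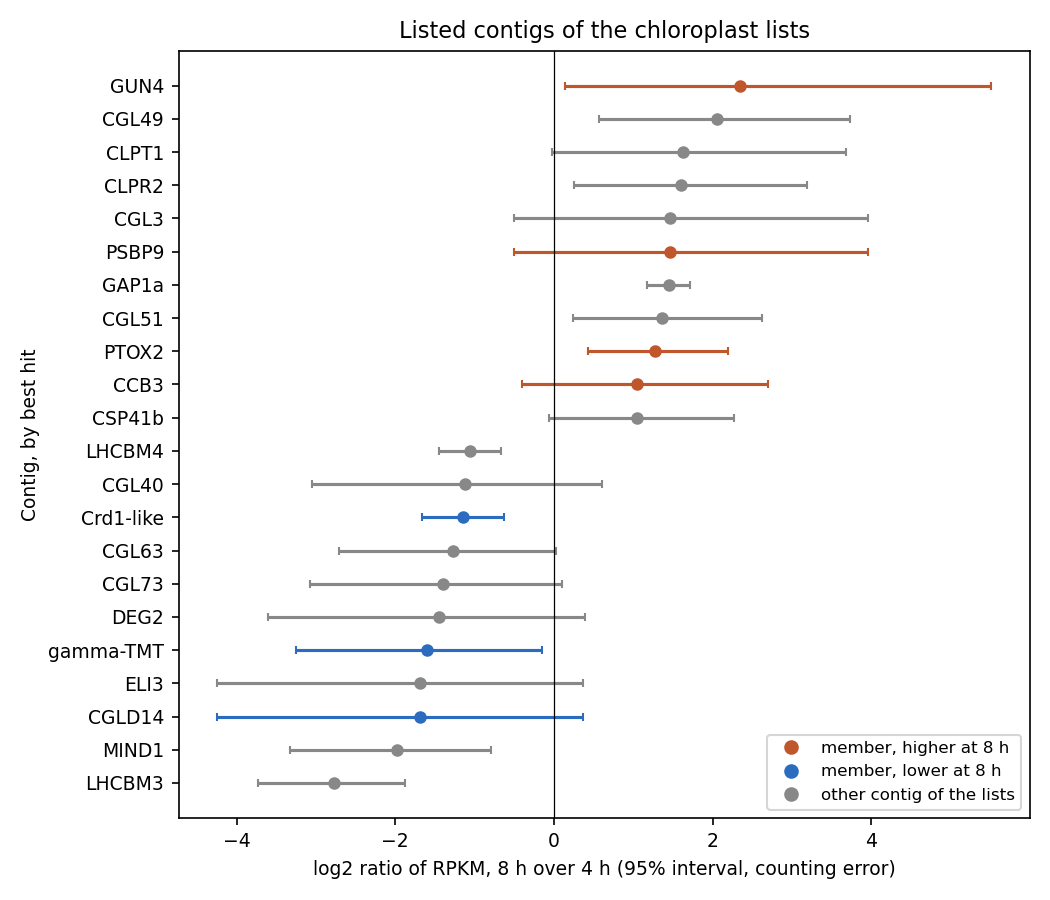
Log2 ratio of RPKM (8 h over 4 h) with 95% exact intervals for 22 contigs, members coloured by direction and other contigs grey. They are the contigs of the chloroplast lists and the Crd1-like contig, a member that no list matched. Intervals reach past 0 for CCB3, PSBP9 and CGLD14 among the members, and GAP1a and LHCBM4 have the narrowest intervals among the others.

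For each member, the annotated contig nearest to it was sought among 200 others by the distance between log2 RPKM values over the 2 libraries. PTOX2 was nearest to a contig of the ribosomal protein L1p/L10e family, at a distance of 0.03. CCB3 was nearest to FAP174, a flagellar associated protein, at 0.06, and CGLD14 to MAPKKK13, a protein kinase, at 0.07. The methyltransferase was nearest to ASF1, a histone chaperone, at 0.08, and PSBP9 to an RNI-like superfamily protein at 0.10. GUN4 and the Crd1-like contig had no such close neighbour. Nearest to them, respectively, were ERD2A, named for endoplasmic reticulum retention, at 0.31 and the histone contig HTB26 at 0.62. Over 2 libraries such nearness describes levels alone. For no member was the nearest contig another member or a contig of the chloroplast lists. Members and these lists together make up only 22 of the 234 listed contigs, so this does not set the members apart from other chloroplast contigs.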

How the data were processed

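Stranded TruSeq mRNA libraries were made from RNA of each time point, per the labels' protocols. Partek is named, with no version, per the submitters' processing notes. Aligner, assembler and build were not given in the sources used here, and none was assumed. The authors deposited RPKM means per time point, whose column headings name neither sample. They were assigned as numerator (8 h) and denominator (4 h) of the deposited ratio, whose contrast reads 8 vs 4. The deposited tables also hold that ratio, its natural log, a signed fold score, p-values and a step-up FDR, per the file headers. The authors' raw totals and maxima are estimated counts, not always whole. Annotations are best hits in Chlamydomonas reinhardtii, per the file headers. The text names all members, the annotated contig nearest to each, and the annotated contigs of each chloroplast list (in the list over 10, the 6 with most reads and a described function, with the others added after their values were seen).

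Read numbers were solved from RPKM, length and raw maximum per contig; their scale was constant within 0.01% in 134 of 134 higher and 97 of 100 lower rows. Of 161 contigs with whole raw totals, 161 gave whole reads at both times within 0.001. Folds are ratios of RPKM means, and their intervals are Clopper-Pearson limits on the share of reads from 8 h. Levels have exact Poisson intervals. Reads were rounded for intervals, and PCR duplicates are not separated. No condition was tested, with 1 library each. Members, keyword lists and rules were chosen with earlier results of these data known. Sequences are not used here. Alternatives were pseudocounts of 1 and 0.1 RPKM, unscaled reads, at least 10 reads, an E value under 1e-20, members by symbol, Wilson intervals, lists without members and rounded totals. Removal of fractional totals was chosen after seeing the data. Work was done in Python 3.11.15 with scipy 1.17.1, numpy 2.4.6, matplotlib 3.10.9 and pandas 2.3.3.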

Additional observations from a re-analysis of the deposited data

Results flagged for a closer look

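Raw totals of the members held reads that belong to neither time point. The excess was 80 of 221 reads for the Crd1-like contig (36.2%, exact interval 29.9% to 42.9%). It was 8 of 19 reads for CGLD14 (42.1%, 20.3% to 66.5%), and 5 of 19.4 for GUN4 (25.8%, 9.15% to 51.2%). CCB3 had 6 of 27, gamma-tocopherol methyltransferase 5 of 26 and PTOX2 7 of 70. Each exceeds 3 reads, the limit used here for a closer look. PSBP9, with 3 of 16, does not pass this limit, although its excess reads were recovered in the same way. Over the 7 members the excess was 28.6% of raw reads, or 19.2% without the Crd1-like contig, beside 15.2% over all listed contigs. It was 30.6% over the 15 other contigs of the chloroplast lists together. Among those lists it ranged from 2.28% for other chloroplast proteins to 59.8% for the antenna and early light-inducible list. A pooled share above that of all listed contigs was thus also found in the antenna list, but not in every chloroplast list. The median share per contig was 22.2% for the members, 13.6% for the 15 others and 10.9% over all listed contigs.

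The deposited sums show where these reads lie. Among 21 contigs with whole totals and 1 excess read, the read's worth in RPKM took 2 values, which correspond to libraries of 178809 reads (15 contigs) and 241504 reads (6 contigs). With libraries of those depths, all 161 contigs with whole totals resolved into whole reads within 0.05, and 0 contigs gave a negative number. The deposited totals therefore held reads at 2 further depths, and no label names them. They are treated as 1 unlabelled library each, although libraries of equal depth could not be told apart.

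The Crd1-like contig had 67 reads in the shallower unlabelled library and 13 in the deeper one. Its levels there were 213 RPKM (exact Poisson interval 165 to 270) and 30.5 RPKM (16.3 to 52.2), beside 92.8 RPKM at 4 h and 42.1 RPKM at 8 h. The interval in the shallower library lay above those of the other 3 libraries. CGLD14 had 37.7 RPKM (15.2 to 77.7) and 3.99 RPKM (0.101 to 22.2) on 7 reads and 1. The intervals of the remaining members were wide. GUN4 had 28.1 and 5.20 RPKM on 4 reads and 1, CCB3 38.6 and 5.72 RPKM on 5 reads and 1, and PTOX2 14.2 and 4.21 RPKM on 5 reads and 2. PSBP9 had 2 reads and 1. The methyltransferase had 19.1 RPKM on 5 reads in the shallower library and 0 reads in the deeper one, where the interval reached up to 10.5 RPKM and the 3 reads that a count of 0 allows would be 8.50 RPKM. All 7 members were at a higher level in the shallower library, as were 80 of 98 listed contigs with over 3 excess reads (81.6%). PSBP9, with 3 excess reads, does not pass that limit and is not among the 98. The intervals of the unlabelled libraries were apart for 1 member, the Crd1-like contig, which is also the best-counted one. The share of all listed contigs with such intervals apart was not computed, so this is not read as a trait of that contig. What these libraries are is not given in the sources used here, so their levels cannot be assigned to a time or a light condition.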

How the results depend on the processing

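Of 58 alternatives computed, 55 left the value within its interval or the count within 1.5 times, 3 moved a count and 0 reversed a direction. No reversal was possible under the pseudocounts, which cannot change the direction of a ratio. Unscaled reads could not reverse one either, as all folds were at least 2 and the library depths differed by less. The E value limit removed no member, as their largest E value was 5e-40. The absence of reversals is therefore no sign of robustness. With members found by symbol only, 1 lower member was left, CGLD14. With member contigs left out, the tetrapyrrole list held 0 higher contigs and the list for photosystems, the b6f complex and the thylakoid 3. The log2 ratio ranged over pseudocounts and unscaled reads from 2.12 to 2.63 for GUN4 and from -1.14 to -0.86 for the Crd1-like contig. Wilson intervals excluded 1 for the same 4 members. No paired analysis was possible because each time point has 1 library, and no replicate could be left out. Depth is a limit beside the single library per time point: 5 of 7 members had at most 15 reads in either library, and folds were selected to be at least 2.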
